A study of Mus musculus with 12 samples.

Results

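Sphingosine-1-phosphate (S1P) and lysophosphatidic acid (LPA) are lysophospholipids that act outside the cell as signals, and 10 genes for their receptors and for the enzymes that make or remove them are described here. They are the S1P receptors *S1pr1*, *S1pr2*, *S1pr3* and *S1pr5*, the LPA receptors *Lpar1*, *Lpar4* and *Lpar6*, and the enzymes *Sphk1*, *Enpp2* and *Plpp3*. The 10 genes are found by symbol among the 55471 genes of the count table. They were selected on values measured in the same comparison of *Neuid* KD with control, so their levels are a description and carry no test. All 10 passed the filter on low counts, as did 19578 genes in all.

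Each receptor couples to G proteins of one or several classes, and the receptors of a family can therefore drive different responses to the same lipid. S1P is made inside the cell by sphingosine kinases and leaves it through transporters, whereas LPA is made largely outside the cell by autotaxin, the product of *Enpp2*. Lipid phosphate phosphatases at the cell surface remove the phosphate of either lipid and so end the signal. In the brain, *S1pr1* and *Plpp3* are well known from astrocytes, *S1pr5* from the oligodendrocyte lineage, and *S1pr3* and *Sphk1* are often named among genes of reactive astrocytes.

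The libraries were made from total RNA of hippocampal neuron cultures, prepared from wild-type CD1 mouse embryos of mixed sex at embryonic day 17. At DIV 7 (days in vitro) the cultures received a gapmer, an antisense oligonucleotide that leads to cleavage of its target RNA, in lipid nanoparticles. The control group received a negative control gapmer and the *Neuid* KD group a gapmer against the long noncoding RNA *Neuid* (Gm10419), and RNA was taken at DIV 10. There were 6 libraries per group, all of WT genotype. Neither the labels nor the text used here relate the libraries to separate cultures, and a legend of the study gives a sample number for the knockdown in the RNA-seq samples that is smaller than the number of libraries. The p-values thus measure only the spread between these libraries, which may be technical.

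The depth was 18002585 to 30914714 counted reads in the control libraries and 11152556 to 30573480 in the *Neuid* KD libraries. The libraries differed in background reads, measured as the summed level of 1501 protein-coding chemosensory receptor genes (a limit to protein-coding genes that was set after seeing the data), which ran from 24.8 to 629 CPM (read counts scaled to the TMM-adjusted library size). Background of at least 100 CPM was found in 7 libraries (4 control, 3 *Neuid* KD), and the remaining 5 (2 control, 3 *Neuid* KD) had less. Of the 10 genes, 7 had levels of a few CPM, and several of these differed between the library classes within a group.

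Genes were called at an adjusted p below 0.05 and an absolute log2 fold change above 0.5. The gapmer target was lower in every *Neuid* KD library than in any control library. *Neuid* was at 26.0 CPM in the lowest control library, 28.3 at the median and 31.01 in the highest, and at 6.32, 8.08 and 9.55 CPM in *Neuid* KD. Its log2 fold change was -1.81 (SE 0.08), with an adjusted p of 1.3e-10 in the quasi-likelihood test of edgeR after Benjamini-Hochberg correction. A two-sided exact permutation test gave p = 0.002165, the smallest that 6 libraries against 6 allow.

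Among the S1P receptors, *S1pr1* was higher and *S1pr3* lower in *Neuid* KD, and the other 2 genes averaged below 2 CPM in both groups. *S1pr1*, a Gi-coupled receptor, was at 9.29 CPM in the lowest control library, 12.6 at the median and 16.7 in the highest, and at 28.8, 30.9 and 33.6 CPM in *Neuid* KD. All 6 *Neuid* KD libraries lay above all 6 control libraries, and within the control group the libraries with less background held the 2 highest values. The means were 12.9 ± 2.44 and 31.04 ± 1.99 CPM (SD, n = 6 per group), with a log2 fold change of 1.26 (1.41 among the 7 libraries with more background, 0.98 among the other 5). *S1pr3*, which couples to Gi, Gq and G12/13 proteins, was at 16.1, 19.2 and 22.6 CPM in the lowest, median and highest control library and at 4.45, 5.20 and 6.85 CPM in *Neuid* KD. Here the order was the opposite one, with every *Neuid* KD library below every control library. The means were 19.3 ± 2.12 and 5.44 ± 0.931 CPM (SD, n = 6 per group), so that 28.2% of the control level was measured in *Neuid* KD, with a log2 fold change of -1.83. In bulk RNA, fewer cells that express a gene and less of its RNA per cell cannot be told apart.

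*S1pr2*, a receptor that couples strongly to G12/13, was at 0.801, 1.58 and 2.27 CPM in the lowest, median and highest control library and at 0.734, 1.66 and 2.38 CPM in *Neuid* KD. The groups overlapped almost completely, and its log2 fold change of 0.05 became 0.40 within the 7 libraries with at least 100 CPM of background and -0.29 within the 5 under it. In *Neuid* KD the 3 libraries with more background held from 2.15 to 2.38 CPM and the other 3 from 0.734 to 1.17. *S1pr5* was at 0.769, 1.21 and 1.95 CPM in control and at 0.187, 0.541 and 1.27 CPM in *Neuid* KD. Its groups overlapped through the *Neuid* KD libraries with more background, which lay between 0.733 and 1.27 CPM, while the 3 with less background lay between 0.187 and 0.350. The log2 fold change of *S1pr5* was -0.94 over all libraries, -0.28 within the 7 libraries with at least 100 CPM of background and -2.08 within the 5 under it. Between 4 and 42 reads per library stood behind these *S1pr5* values.

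The make-up of the S1P receptor RNA differed between the groups. Per kilobase of exon, the 5 receptor genes (the 4 above and *S1pr4*) summed to 9.30 ± 0.848 CPM per kb in control and 11.9 ± 0.879 in *Neuid* KD (SD, n = 6 per group), with ranges of 8.10 to 10.5 and 10.9 to 13.2. *S1pr1* held 45.2% ± 5.42 of this sum in control and 85.7% ± 3.14 in *Neuid* KD. For *S1pr3* the shares were 46.6% ± 4.81 and 10.2% ± 1.24. In control the ranges of the receptors overlapped, from 37.6% to 52.1% for *S1pr1* and from 42.0% to 52.7% for *S1pr3*, and neither gene led beyond the spread. In *Neuid* KD the lowest share of *S1pr1* was 80.6% and the highest share of *S1pr3* was 12.5%.

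**Figure D1:**
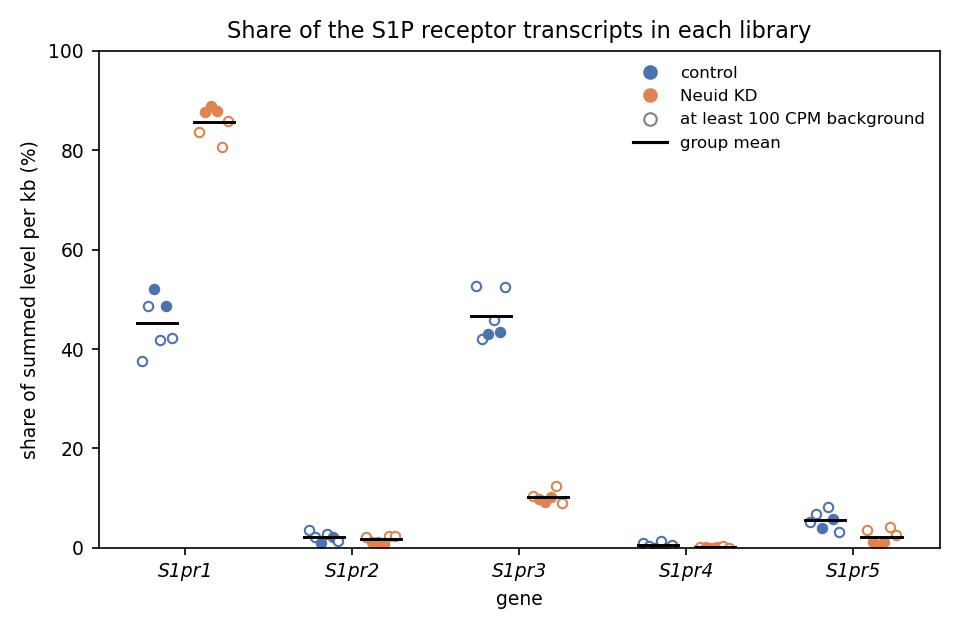
Share of each S1P receptor gene in the summed level of the 5 genes (percent of CPM per kb of exon, vertical axis), in each of the 6 control and 6 Neuid KD libraries; points are libraries, open points are libraries with at least 100 CPM of chemosensory background, and lines are group means. *S1pr1* and *S1pr3* held about equal shares in control, and *S1pr1* held between 80.6% and 88.9% in Neuid KD.

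Of the LPA receptors, *Lpar4* was higher in *Neuid* KD by a narrow margin and the other 2 genes overlapped between the groups. *Lpar4*, a receptor related to the purinergic receptors, was at 0.407, 1.11 and 1.62 CPM in the lowest, median and highest control library and at 1.64, 2.04 and 2.83 CPM in *Neuid* KD. The groups did not overlap, although the highest control library and the lowest *Neuid* KD library were nearly level. The means were 1.03 ± 0.429 and 2.10 ± 0.393 CPM (SD, n = 6 per group) with a log2 fold change of 1.02, which was 1.38 within the 7 libraries with more background and 0.51 within the other 5. With the settings used for the calls given here *Lpar4* was not called, but it was called higher in 6 of the 23 alternative fits, 5 of them with all 12 libraries and the other without control replicate 5 (log2 fold change 1.19). *Lpar1*, the receptor best known from neural progenitors and oligodendrocytes, was at 0.934, 2.04 and 2.74 CPM in control and 1.19, 1.67 and 2.83 CPM in *Neuid* KD. *Lpar6* was at 0.767, 1.31 and 1.65 CPM in control and 1.17, 1.48 and 2.01 CPM in *Neuid* KD. For both genes the groups overlapped widely, with log2 fold changes of -0.02 for *Lpar1*, which changed sign to 0.08 with the background as a covariate, and 0.25 for *Lpar6*. In control, *Lpar1* was at 1.94 to 2.74 CPM in the 4 libraries with more background and at 0.934 to 1.43 in the other 2. Its classes overlapped in *Neuid* KD, at 1.60 to 2.83 CPM with more background and 1.19 to 1.73 with less. In *Neuid* KD, *Lpar6* was at 1.73 to 2.01 CPM in the 3 with more and at 1.17 to 1.24 in the 3 with less. Its classes overlapped in control, at 1.16 to 1.65 CPM with more background and 0.767 to 1.20 with less. *Lpar6* lies within *Rb1*, on the opposite strand, a gene whose mean level was 33.9 CPM in the control and 36.8 CPM in the *Neuid* KD group. Whether the counting used strand is not stated, so reads of *Lpar6* and of *Rb1* introns cannot be told apart.

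The enzyme genes differed in the same comparison from one another. *Plpp3*, a phosphatase of LPA, S1P and related lipids, was at 42.7 CPM in the lowest control library, 52.1 at the median and 56.3 in the highest, and at 129.9, 145 and 154 CPM in *Neuid* KD. Every *Neuid* KD library lay above every control library, and the groups were each tight, with means of 51.2 ± 4.79 and 144 ± 8.54 CPM (SD, n = 6 per group). Its log2 fold change was 1.49, and 1.53 and 1.39 within the libraries with more and with less background. *Enpp2*, which encodes the secreted enzyme autotaxin, was at 2.55, 2.92 and 3.72 CPM in control and 2.90, 3.80 and 4.03 CPM in *Neuid* KD. These ranges overlapped, and its log2 fold change was 0.29. The *Neuid* KD libraries with more background held 3.87 to 4.03 CPM of *Enpp2* and those with less 2.90 to 3.72. In control the 2 classes overlapped, at 2.55 to 3.72 CPM with more background and 2.84 to 3.01 with less. *Sphk1*, a sphingosine kinase, was at 2.23, 3.47 and 4.49 CPM in control and 1.12, 2.04 and 4.38 CPM in *Neuid* KD. Of the *Neuid* KD libraries, 5 lay below the lowest control library and replicate 1, which had the most background of its group, lay near the highest. The log2 fold change of *Sphk1* was -0.63 with all libraries and -0.95 without *Neuid* KD replicate 1, which was 1 of the 4 alternative fits in which *Sphk1* was called lower.

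**Figure D2:**
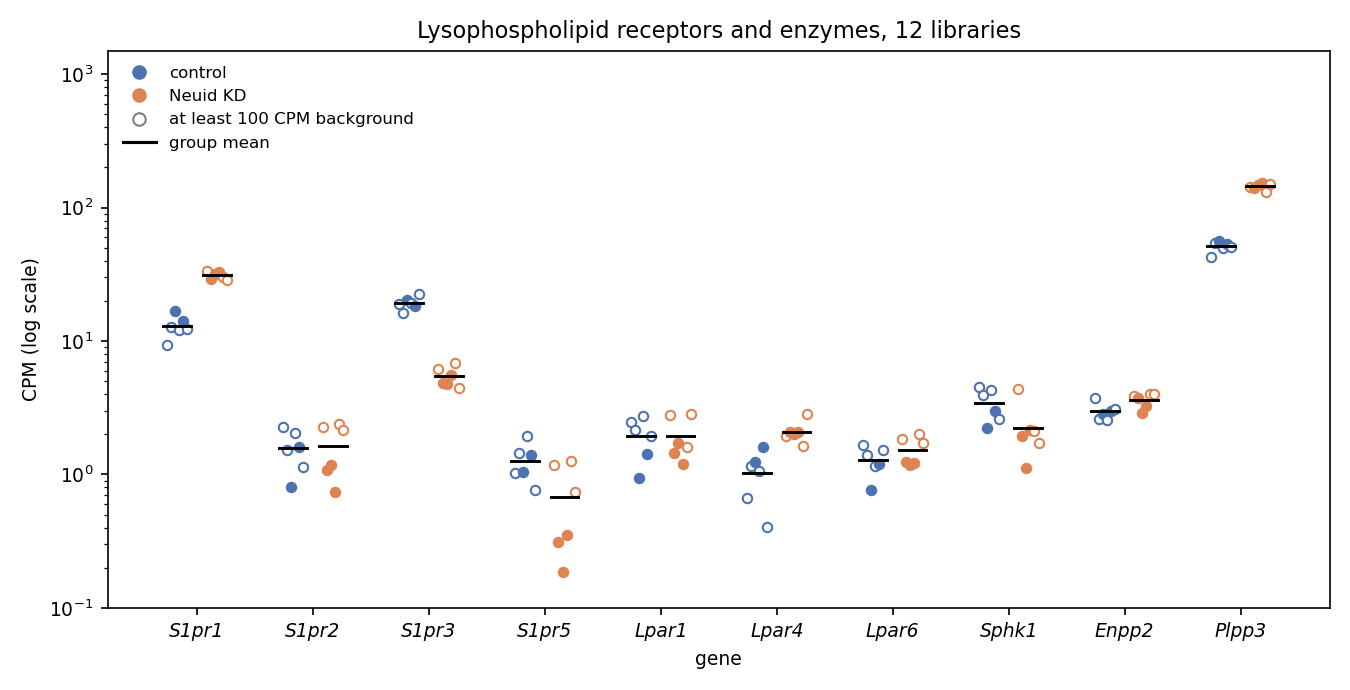
Level of each of the 10 genes in CPM (log scale, vertical axis) in the 6 control and 6 Neuid KD libraries; points are libraries, open points are libraries with at least 100 CPM of chemosensory background, and lines are group means. The groups are apart for *S1pr1*, *S1pr3*, *Lpar4* and *Plpp3* and overlap for the other 6 genes.

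Of the 10 genes, 2 (*S1pr1* and *Plpp3*) were called higher in *Neuid* KD, as were 2.44% of all tested genes. One gene, *S1pr3*, was called lower, as were 0.792% of all tested genes. Every *Neuid* KD library lay above every control library for 3 of the 10 and for 4.13% of the tested genes, and below for 1 of the 10 and for 1.57%. Since the genes were chosen on this comparison, nothing is read from these counts. The median log2 fold change was 0.15 over the 10 genes and -0.03 over all tested genes.

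Per length, *Plpp3* was the most abundant of the 10 in control, at 16.2 ± 1.52 CPM per kb (SD, n = 6). *S1pr3* at 4.32 ± 0.474 and *S1pr1* at 4.22 ± 0.802 CPM per kb came next and did not differ beyond their spread. The other 7 genes were below 1 CPM per kb in every control library, and each overlapped its neighbour in the order *Sphk1*, *Enpp2*, *S1pr5*, *Lpar1*, *Lpar4*, *Lpar6*, *S1pr2*. In *Neuid* KD the 3 leading genes were apart from one another, with *Plpp3* at 45.7 ± 2.70, *S1pr1* at 10.2 ± 0.654 and *S1pr3* at 1.22 ± 0.209 CPM per kb (SD, n = 6). The other 7 again overlapped with their neighbours, in the order *Enpp2*, *Lpar4*, *Sphk1*, *Lpar1*, *Lpar6*, *S1pr5*, *S1pr2*.

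Genes with the most similar pattern were sought among the 15205 tested genes that averaged 1 CPM or more, by the root mean square distance of log2 CPM over the 12 libraries after each gene was centred on its mean. *Plpp3* was nearest to *Fabp7* (distance 0.06), *Olig1* (0.07) and *Ndrg2* (0.08), and *S1pr1* to *Slc1a3* (0.11), *Gatm* (0.12) and *Cst3* (0.13). *Fabp7* encodes a fatty acid binding protein of radial glia and astrocytes, and *Slc1a3* a glial glutamate transporter. *S1pr3* was nearest to Gm10419, which is *Neuid* itself (0.21), to *Tagln2* (0.21) and to *Gpd1* (0.22). The distances were larger for *Lpar4*, with *Prom1* (0.29), Gm13111 and Gm6145, and for *S1pr5*, with *Irak4* (0.35), *Card10* and *Piwil2*. The nearest genes were *Rhbdf1* (0.12), *Tmcc3* and *Slc25a15* for *Enpp2*, and *Plcd3* (0.20), *Asap3* and *Fam114a1* for *Sphk1*. For the genes whose groups overlapped most they were *P2rx3* (0.17), *Il4ra* and *Glt8d2* for *S1pr2*, *Eml3* (0.18), Gm29502 and *Iqgap3* for *Lpar1*, and *Iqub* (0.17), *Phf21b* and *Hykk* for *Lpar6*.

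A further 66 genes of the pathway were listed by role, and 52 of them were tested. With edgeR, 1 of the 52 tested genes, *Plpp4*, was called higher and 0 were called lower, beside 2.44% and 0.792% of all tested genes. At an unadjusted p below 0.05 with the same fold the counts were 1 and 2, and with DESeq2 they were 1 and 1. *Plpp4*, a phosphatase of the same family as *Plpp3*, was at 0.767, 0.805 and 1.45 CPM in the lowest, median and highest control library and at 2.39, 2.94 and 4.04 CPM in *Neuid* KD. No *Neuid* KD library reached down to the control range, and the log2 fold change was 1.74 (SE 0.25), with an edgeR adjusted p of 0.000105. With the fold-change threshold set aside, 10 of the 52 tested genes were higher at an adjusted p below 0.05, as were 6.31% of all tested genes. Of the tested pathway genes, 5 had every *Neuid* KD library above every control library (*Plpp4*, *Asah1*, *Agpat3*, *Gnai2* and *Gna13*) and 1, *Sphk2*, had every one below, beside 4.13% and 1.57% of all tested genes; apart from *Plpp4* and *Asah1* these genes were named after their values were seen. The log2 fold change of *Sphk2* was -0.18, with an edgeR adjusted p of 0.0915. Its span overlaps *Dbp* and *Rpl18* on the opposite strand, and since the strand setting is not given its counts are uncertain. The median log2 fold change of the 52 tested pathway genes was -0.05, close to the -0.03 of all tested genes.

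Of the 10 other lysophospholipid receptors, 2 were tested and 0 were called in edgeR; DESeq2 called 1 lower, *Lpar2*, which also had an unadjusted p below 0.05 in edgeR. *Lpar2*, the most abundant of them, was at 3.91 ± 0.554 CPM in control and 2.63 ± 0.644 in *Neuid* KD (SD, n = 6 per group, log2 fold change -0.58, edgeR adjusted p = 0.0519), and it was called lower in 10 of the 23 alternative fits. The other 8 receptors were below the filter, with means under 0.5 CPM in each group. The list of 13 genes for S1P synthesis, breakdown and export had 10 tested genes, and none was called by edgeR or DESeq2 or had an unadjusted p below 0.05 with the fold required. Its most abundant gene per length, the acid ceramidase gene *Asah1*, differed by 0.29 on the log2 scale, and its edgeR adjusted p was 0.00706. Of the 10 genes for LPA production, 8 were tested and the same counts were 0, with *Gdpd1* the most abundant (log2 fold change -0.06, edgeR adjusted p = 0.653). The last list of 17 genes held lipid phosphate phosphatases, the related *Plppr* genes and LPA-removing enzymes, and 16 of them were tested. It included *Plpp4* and *Plpp2*, the latter named after its values were seen. The log2 fold change of *Plpp2* was -0.997, with an edgeR adjusted p of 0.25.

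**Figure D3:**
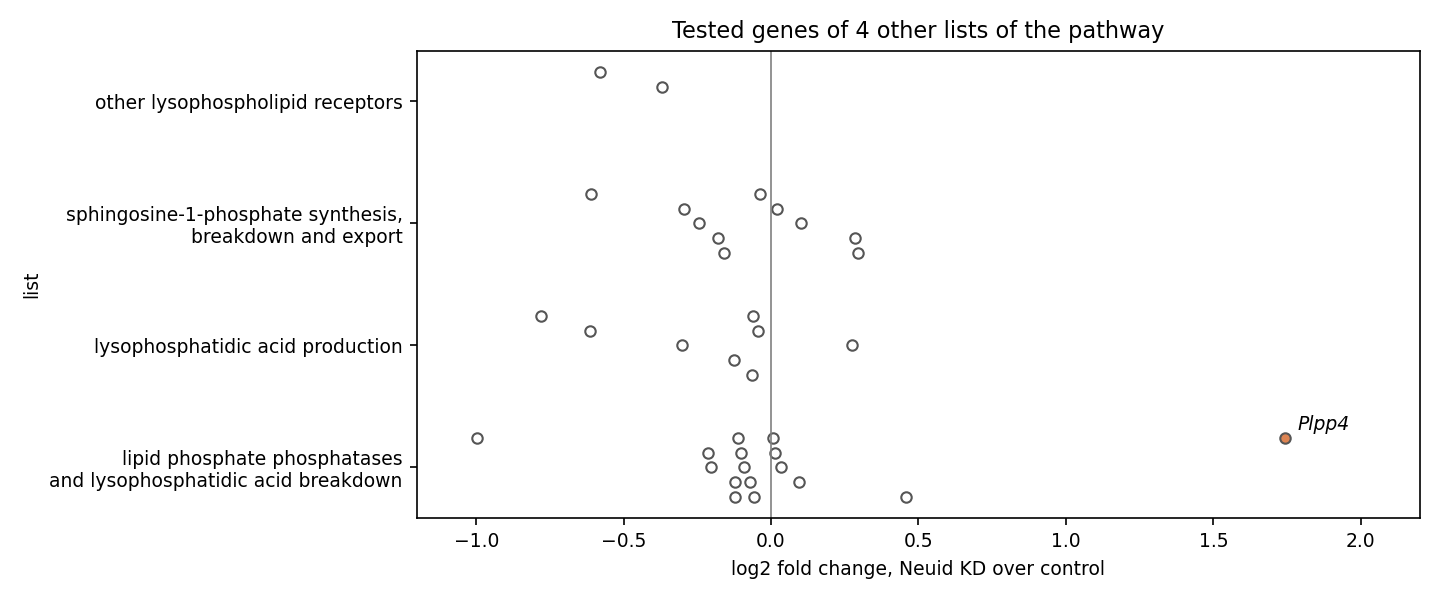
Log2 fold change, Neuid KD over control (horizontal axis), of the tested genes of 4 pathway lists (vertical axis); each point is a gene and the filled point is the gene called higher. *Plpp4* at 1.74 stands apart from the other points.

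The label of the cultures was checked against markers. All 10 neuron markers were tested and none was called by edgeR or DESeq2 or at an unadjusted p with the fold required, and their summed level was 6951 ± 421 CPM in control and 7008 ± 423 in *Neuid* KD (SD, n = 6 per group), with *Tubb3* the most abundant per length. Of 12 astrocyte markers, 11 were tested and 9 rose. Their sum was 2101 CPM in control (from 1819 to 2291 over the libraries) and 4087 CPM in *Neuid* KD (from 3631 to 4340), and *Slc1a2* was the most abundant, at means of 1185 and 1834 CPM. Of 8 oligodendrocyte precursor markers, all were tested and 3 rose, and the sum was 101 to 121 CPM in control and 253 to 298 in *Neuid* KD. *Olig1* made up most of it, at 78.2 ± 8.49 and 216 ± 11.7 CPM, and 5 markers of this list, among them *Pdgfra*, *Cspg4* and *Sox10*, were not called. Besides *Olig1*, the called genes were *Olig2* and *Lhfpl3*. *Lhfpl3* was close to both limits of the call, with a log2 fold change of 0.54 and an edgeR adjusted p of 0.0499, and its groups overlapped. Of 20 reactive astrocyte markers, which leave out *S1pr3* and *Sphk1*, 14 were tested, in edgeR *Osmr* rose, *Vim* and *Cp* fell and 11 were not called; 1 was higher and 3 lower with DESeq2, and 1 and 4 at an unadjusted p with the fold required. This sum was 633 to 699 CPM in control and 420 to 443 CPM in *Neuid* KD, and most of it was *Vim* at 555 ± 29.1 and 332 ± 8.63 CPM. Without *Vim* the sum was 103 ± 9.47 CPM in control and 98.4 ± 7.60 in *Neuid* KD (SD, n = 6 per group), and the ranges overlapped. These sums also leave out *Gfap*, which was counted with the astrocyte markers above. *Gfap* was called higher in edgeR, at 140 ± 8.22 CPM in control and 210 ± 5.58 in *Neuid* KD (SD, n = 6 per group, log2 fold change 0.59). *Osmr*, *Cp*, *Gfap*, *Olig2*, *Lhfpl3* and the uncalled precursor markers were named after their values were seen. In bulk RNA the cells that held these transcripts cannot be told apart, and the part of the markers in the differences of *S1pr1*, *Plpp3* and *S1pr3* was not tested.

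The remaining marker lists had low sums. Of 10 markers of myelinating oligodendrocytes, 5 were tested and 1 fell, with a sum of 31.3 ± 3.13 CPM in control and 28.2 ± 4.70 in *Neuid* KD (SD, n = 6 per group) and *Cnp* the most abundant. The sums for endothelial cells (12 markers, 8 tested, *Kdr* the most abundant per length) were 18.1 ± 9.30 and 14.4 ± 7.77 CPM. Those for choroid plexus and ependyma (8 markers, 6 tested) were 11.0 ± 3.34 and 10.1 ± 3.90 CPM; *Ttr* had the highest mean per length, with a wide spread (2.67 ± 2.98 and 4.18 ± 3.20 CPM). In these 2 lists 0 markers were called by edgeR or DESeq2 or at an unadjusted p with the fold required. Of 9 pericyte and smooth muscle markers, all tested, 1 rose (*Notch3*, named after its values were seen), with sums of 36.2 ± 7.33 and 45.9 ± 7.48 CPM; per length *Rgs5* had the highest mean in control and *Notch3* in *Neuid* KD. Of 8 fibroblast and meninges markers, 7 tested, 1 fell (*Ptgds*), with sums of 53.9 ± 12.5 and 45.5 ± 9.11 CPM; per length *Ptgds* had the highest mean in control and *Dcn* in *Neuid* KD. For the lists of astrocytes, oligodendrocyte precursors, myelinating oligodendrocytes, pericytes and fibroblasts, DESeq2 and the unadjusted p gave the same counts as edgeR. No marker of the lists given here was at 0 in all 12 libraries.

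On the GRCm38 assembly, *S1pr1* lies at chr3:115710433-115715072 on the minus strand, *S1pr3* at chr13:51408639-51422797 on the plus strand and *Plpp3* at chr4:105157347-105232764 on the plus strand. The annotated span of *S1pr3* overlaps Gm32834 on the opposite strand, whose means were 0.789 CPM (control) and 0.712 CPM (*Neuid* KD). Opposite-strand overlaps are also annotated for *S1pr5*, *Sphk1* and *Enpp2*, with partners below 1 CPM in both groups. *Lpar1* shares its span with Mir3095 and Gm12577 on the same strand (the latter at means of 2.14 CPM in control and 1.86 in *Neuid* KD), and its counts are uncertain for that reason.

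Promoter windows of 300 bases from RefSeq (GRCm38.p6) were matched for 8 of the 10 genes, in 14 windows; *S1pr1* and *Enpp2* had no entry. The windows of *S1pr3*, *Plpp3* and *Plpp4* are shown because these genes were called. Capitals mark every match, on either strand, to the motifs searched, which were the E-box CANNTG, its Olig2-type form CAGCTG (a subset of the former), the Hes-type N-box CACNAG, STAT TTCNNNGAA, AP-1 TGANTCA, TEAD GGAATG, the nuclear factor I motif TTGGC, ETS CCGGAAG and TCF/LEF CTTTGA.
S1pr3, chr13:51408368-51408667, plus strand: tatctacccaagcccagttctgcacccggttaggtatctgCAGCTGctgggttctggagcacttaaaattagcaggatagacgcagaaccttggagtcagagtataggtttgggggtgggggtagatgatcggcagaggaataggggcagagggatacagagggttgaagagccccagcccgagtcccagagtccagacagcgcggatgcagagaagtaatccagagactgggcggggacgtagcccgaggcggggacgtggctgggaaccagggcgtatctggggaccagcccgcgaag
Plpp3, chr4:105157097-105157396, plus strand: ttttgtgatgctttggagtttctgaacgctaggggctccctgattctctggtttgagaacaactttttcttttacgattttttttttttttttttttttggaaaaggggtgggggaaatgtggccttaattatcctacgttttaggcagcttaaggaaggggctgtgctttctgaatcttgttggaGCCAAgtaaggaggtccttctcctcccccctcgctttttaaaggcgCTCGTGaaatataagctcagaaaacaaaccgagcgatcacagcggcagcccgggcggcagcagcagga
Plpp4, chr7:129256844-129257143, plus strand: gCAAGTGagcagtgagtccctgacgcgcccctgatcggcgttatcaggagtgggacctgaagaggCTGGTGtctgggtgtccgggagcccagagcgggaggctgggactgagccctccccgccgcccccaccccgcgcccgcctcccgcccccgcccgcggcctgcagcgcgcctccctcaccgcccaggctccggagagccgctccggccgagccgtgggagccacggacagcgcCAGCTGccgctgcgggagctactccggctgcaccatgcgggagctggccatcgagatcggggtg

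The *S1pr3* window held 1 E-box, of the Olig2 type, and no other motif searched. The *Plpp3* window held 1 N-box and 1 nuclear factor I motif, and the *Plpp4* window 2 E-boxes, 1 of them of the Olig2 type, and 1 N-box. Of the 14 windows, several of which belong to the same gene, 8 held an E-box, as did 72.3% of all 32851 windows. The Olig2-type form was in 2 of the 14 (*S1pr3* and *Lpar6*) and in 16.3% of all windows, the N-box in 6 and 42.5%, and the nuclear factor I motif in 8 and 46.7%. STAT and AP-1 letters were each in 2 of the 14, all of *Sphk1*, and in 8.30% and 7.81% of all windows. TEAD letters were in 2 (*Lpar6* and *Sphk1*) and in 14.7%, TCF/LEF letters in 1 (*Lpar1*) and in 16.0%, and ETS letters in 0 and in 8.86%. These matches describe the letters of the windows and do not show binding.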

How the data were processed

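The authors converted the reads with bcl2fastq 2.20.2, aligned them to mm10 with STAR 2.5.2b and counted them per gene with featureCounts 1.5.1; the deposited values are raw counts, without normalization. The annotation release and the strand setting are not given in the sources used here. Symbols, positions and exon lengths were taken from GENCODE M21 for 55144 genes. Counts were tested in R 4.3.3 with edgeR 4.0.16 (filterByExpr, TMM, quasi-likelihood test, group only, Benjamini-Hochberg adjustment over 19578 genes), and genes were called at an adjusted p below 0.05 and an absolute log2 fold change above 0.5. The functions were tested on simulated data. Alternatives were other normalizations and filters, DESeq2 1.42.0, covariates (RUVs factors, background reads), subsets of libraries, the replicate number as a block, other fold thresholds and each library left out. Fold changes are *Neuid* KD over control. Named genes were the 10 genes in every library, *Neuid*, each called pathway gene or else the most abundant of its list, the most abundant gene and genes at 0 of each marker list, and the 3 nearest in pattern to each of the 10; others were named after their values were seen. The genes and lists were chosen with earlier results of these data known. The results of 1 pathway list and 1 marker list are not reported here on their own.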

Additional observations from a re-analysis of the deposited data

Results flagged for a closer look

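In groups of 6 libraries, a highest or lowest value whose gap to the nearest other took up more of the group's range than Dixon's critical value for 6 samples was singled out, which chance gives in about 1 of 20 groups; 24 groups were examined and 2 stood out. *Sphk1* was at 4.38 CPM in *Neuid* KD replicate 1, where the next library was at 2.17 CPM and the lowest at 1.12 CPM. *Plpp4* was at 1.45 CPM in control replicate 2, where the next library was at 0.971 CPM and the lowest at 0.767 CPM.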

How the results depend on the processing

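Since the 10 genes were chosen on this comparison, their calls here are not tests. *S1pr1*, *Plpp3* and *Plpp4* were called higher and *S1pr3* lower in all 23 alternative fits, and the log2 fold change of *Neuid* stayed between -1.93 and -1.74 with an adjusted p of at most 3.5e-09. That of *Plpp4* ran from 1.62 to 1.91, with an adjusted p of at most 0.00234. Besides *S1pr3*, *S1pr5* and *Sphk1* were called lower with 1 RUVs factor and with the background covariate (3 of the 10 each), *S1pr5* in libraries under 100 CPM of background (2) and *Sphk1* with the replicate block (2). Leaving out each library in turn gave 1 to 2. *Lpar4* was called higher in 6 of the 23. Over all genes, 155 were lower with all libraries, 254 with DESeq2, 283 and 260 with 1 and 2 RUVs factors, 300 with the background covariate, and 123 to 269 with each library left out, the highest without *Neuid* KD replicate 1. The share of called genes that were called higher, rather than lower, was 75.5% with TMM and 64.1% with upper-quartile normalization. It was 61.3% without *Neuid* KD replicate 1 and 80.4% with no filter. At a fold threshold of 0.3, 797 genes were higher and 328 lower, and with none 1235 and 473. Of the pathway genes, none was lower in the main setting, 1 was with RLE, upper quartile, DESeq2 and the replicate block, 2 with 1 or 2 RUVs factors and the background covariate, and 0 to 2 with each library left out; these were *Lpar2* and *Plpp2*. The number higher was 2 in libraries with at least 100 CPM of background, 4 at a fold threshold of 0.3 and 10 with none. The causes of these shifts were not tested. Same-numbered libraries did not pair: the correlations of their deviations ran from -0.64 to 0.77, and 2 of 6 control libraries were closest to their own number. With the replicate block, 474 genes were higher and 167 lower. *S1pr2*, *S1pr5* and the 3 LPA receptors had 4 to 59 reads per library; the effect of depth was not tested.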
